A study of Mus musculus with 34 samples.

Results

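Macrophages are the resident phagocytes of most tissues, and 37 of their genes were followed through every library of a mouse RNA sequencing study in which fibroblasts were turned into neurons and hepatocytes. The genes come from a list of macrophage, microglia and Kupffer cell genes given by name, with no threshold on a measured value, though earlier results of these data were known when it was made, out of 49069 genes with a row in any of the 5 deposited tables. Of these, 28 are shared by macrophages of many tissues, 3 (Cx3cr1, P2ry12, Tmem119) are used as microglial genes and 6 (Cd163, Clec4f, Vsig4, Timd4, Marco, Cd5l) as Kupffer cell genes. The question put to them here was how much macrophage RNA each library held and of which kind.

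The study passed mouse fibroblasts through a chemically induced state resembling extraembryonic endoderm (XEN-like cells), and 34 libraries of poly-A RNA were sequenced. The XEN-like table held 8 primary XEN-like colonies, 3 libraries of line F25 (passages 5, 8 and 13), 2 libraries of line s39 (passages 3 and 17), 1 library of chemically derived embryonic XEN cells (eXEN, passage 8) and 2 of embryonic fibroblasts. F25 and s39 are 1 line each. The hepatic table held 4 libraries of hepatocyte-like cells made by way of the XEN-like state, with 2 of hepatocytes, 2 of hepatic tissue and 2 of embryonic fibroblasts. The neuronal tables held TauEGFP+ colonies 1 and 2 (induced neuronal cells, the second also labelled as derived from passage 2 XEN-like cells), cells induced by FICB (a treatment the labels do not spell out), primary cortical neurons 1 and 2, brain and fibroblasts, and a table of its own held 1 library labelled as XEN-derived neurons at passage 24. Every library came from the strain Mapttm2(EGFP)Klt/J, in which a green fluorescent protein replaces part of the tau gene, except the C57BL/6 primary neurons, so strain and cell type cannot be told apart there. No ages are given in the labels, and they do not say which libraries are separate cultures or animals, so p-values measure only the spread between these libraries, which may be technical.

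Macrophages need signals through Csf1r, the receptor for the growth factors CSF1 and IL-34, and the transcription factor PU.1, encoded by Spi1. They engulf cells and particles through scavenger, complement and Fc receptors that signal through the adaptors Tyrobp and Fcer1g, and degrade them with lysosomal enzymes. Microglia in brain carry the fractalkine receptor Cx3cr1 and the ADP receptor P2ry12, whereas Kupffer cells, which line the liver sinusoids, carry the lectin Clec4f and the complement receptor Vsig4.

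PU.1 binds purine-rich sites with a GAGGAA core, and promoters are shown because Spi1 is itself a member and because many members differed together between induced cells and their controls. RefSeq promoters of GRCm38.p6 were matched for 27 of the 37 genes, and the 250 bases before the start were searched on both strands. GAGGAA or its reverse complement TTCCTC was found in 16 of 27 genes (59.3%), against 6986 of 27025 genes (25.9%). The longer GAGGAAGT, which contains GAGGAA, was found in 1 of 27, C1qc, against 755 of 27025 (2.79%). C1qc encodes a chain of complement C1q (chr4:136892915-136893164, minus strand), Laptm5 a lysosomal membrane protein of leukocytes (chr4:130913066-130913315, plus strand), Vsig4 the Kupffer complement receptor (chrX:96293439-96293688, minus strand) and P2ry12 the microglial ADP receptor (chr3:59262986-59263235, minus strand). Capitals mark GAGGAA or TTCCTC, and the P2ry12 window holds neither. A match is a run of letters and not a measured binding site.

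C1qc: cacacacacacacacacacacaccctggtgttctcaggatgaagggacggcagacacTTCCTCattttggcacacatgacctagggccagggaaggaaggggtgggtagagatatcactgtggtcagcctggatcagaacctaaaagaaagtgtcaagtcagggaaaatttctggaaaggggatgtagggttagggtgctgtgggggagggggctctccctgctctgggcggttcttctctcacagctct

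Laptm5: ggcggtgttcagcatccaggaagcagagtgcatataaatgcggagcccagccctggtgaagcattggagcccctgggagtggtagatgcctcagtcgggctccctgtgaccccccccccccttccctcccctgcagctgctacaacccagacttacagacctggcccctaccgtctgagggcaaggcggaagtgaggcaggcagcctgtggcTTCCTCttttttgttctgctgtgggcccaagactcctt

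Vsig4: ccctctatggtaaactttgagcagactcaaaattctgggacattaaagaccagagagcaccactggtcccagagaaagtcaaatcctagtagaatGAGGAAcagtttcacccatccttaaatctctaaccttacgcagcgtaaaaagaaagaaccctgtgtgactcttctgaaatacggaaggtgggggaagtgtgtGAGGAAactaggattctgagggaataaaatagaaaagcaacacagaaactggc

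P2ry12: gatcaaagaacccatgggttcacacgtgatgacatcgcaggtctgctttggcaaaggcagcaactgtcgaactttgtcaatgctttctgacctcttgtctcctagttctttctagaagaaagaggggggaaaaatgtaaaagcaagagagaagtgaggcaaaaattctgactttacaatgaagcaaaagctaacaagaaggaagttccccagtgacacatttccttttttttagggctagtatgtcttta

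Levels are fragments scaled to gene length and library size (FPKM), as deposited. Differences were taken on the log2(FPKM + 1) scale, which understates the change of low genes, and tested with limma over all genes that reached 1 FPKM in at least 2 libraries of the model. Calls required an adjusted p below 0.05 (Benjamini-Hochberg) together with a difference of 1 or more on that scale in either direction. All 37 genes had a row in 3 tables, 35 in the second neuronal table, where Adgre1 and Spi1 were not analysed, and 32 in the XEN-like table, where Adgre1, Spi1, Clec4f, Vsig4 and Timd4 were not analysed.

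Total counts are not known. The smallest values above 0 correspond to levels at which 1 fragment on a gene of 1 kb is worth about 0.09 to 0.18 FPKM, which may be off by a factor. Hepatocyte-like libraries 1 and 2, each alone on its flow cell, listed 641 and 345 genes between 0 and 0.1 FPKM, against 2196 and 1538 in hepatocyte-like libraries 3 and 4, so a gene listed at 0 says less in libraries 1 and 2. Libraries 3 and 4 shared flow cell HH2TTALXX with the fibroblasts, and hepatocytes and tissue were on another, so flow cell and group cannot be told apart there. Several pairs of control libraries were unequal in macrophage RNA. Fibroblasts 2 exceeded fibroblasts 1 in both tables that held 2, hepatocytes 1 exceeded hepatocytes 2, and primary neurons 2 exceeded primary neurons 1. Counts that rest on fibroblasts are therefore given with and without each library. For hepatocytes the levels of each library are given beside the count, and results on primary neurons are given by table. The library labelled passage 24 neurons went against its label, with summed neuron markers of 9.1 FPKM, hepatocyte markers of 3801.4 FPKM and extraembryonic endoderm markers of 4417.6 FPKM. Primary neurons 2 was also low in neuron markers, with values beside its results. The hepatocyte-like libraries had hepatocyte marker sums of 7800.6, 6666.5, 1515.7 and 2313.6 FPKM, against 56740.8 and 100616 FPKM in hepatocytes, and extraembryonic endoderm sums of 3947.9 to 8260.2 FPKM, against 240.7 and 359.5 FPKM in hepatocytes.

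The macrophage signal was summed over a core of 12 genes restricted to blood cells and macrophages (Spi1, Csf1r, Tyrobp, Fcer1g, Ptprc, Laptm5, Itgb2, Cd53, Mpeg1 and the 3 C1q chains C1qa, C1qb and C1qc). Core sums were 27.5, 20.3, 25.4 and 33.7 FPKM in the hepatocyte-like libraries, 283 and 20.6 FPKM in hepatocytes, 338 and 194 FPKM in hepatic tissue, and 317 and 1751 FPKM in the fibroblasts of that table. Without Csf1r the hepatocyte-like sums were 1.03, 3.82, 8.01 and 2.54 FPKM, so that 1 gene made up most of each. Over the 11 core genes with a row in the XEN-like table, sums were 0.25 to 2.15 FPKM in the 8 colonies, 0.73 to 2.98 FPKM in the 5 line libraries and 3.13 FPKM in eXEN cells, against 15.97 and 76.7 FPKM in fibroblasts. In a bulk library, fewer macrophages and less RNA of these genes per macrophage cannot be told apart.

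**Figure D1:**
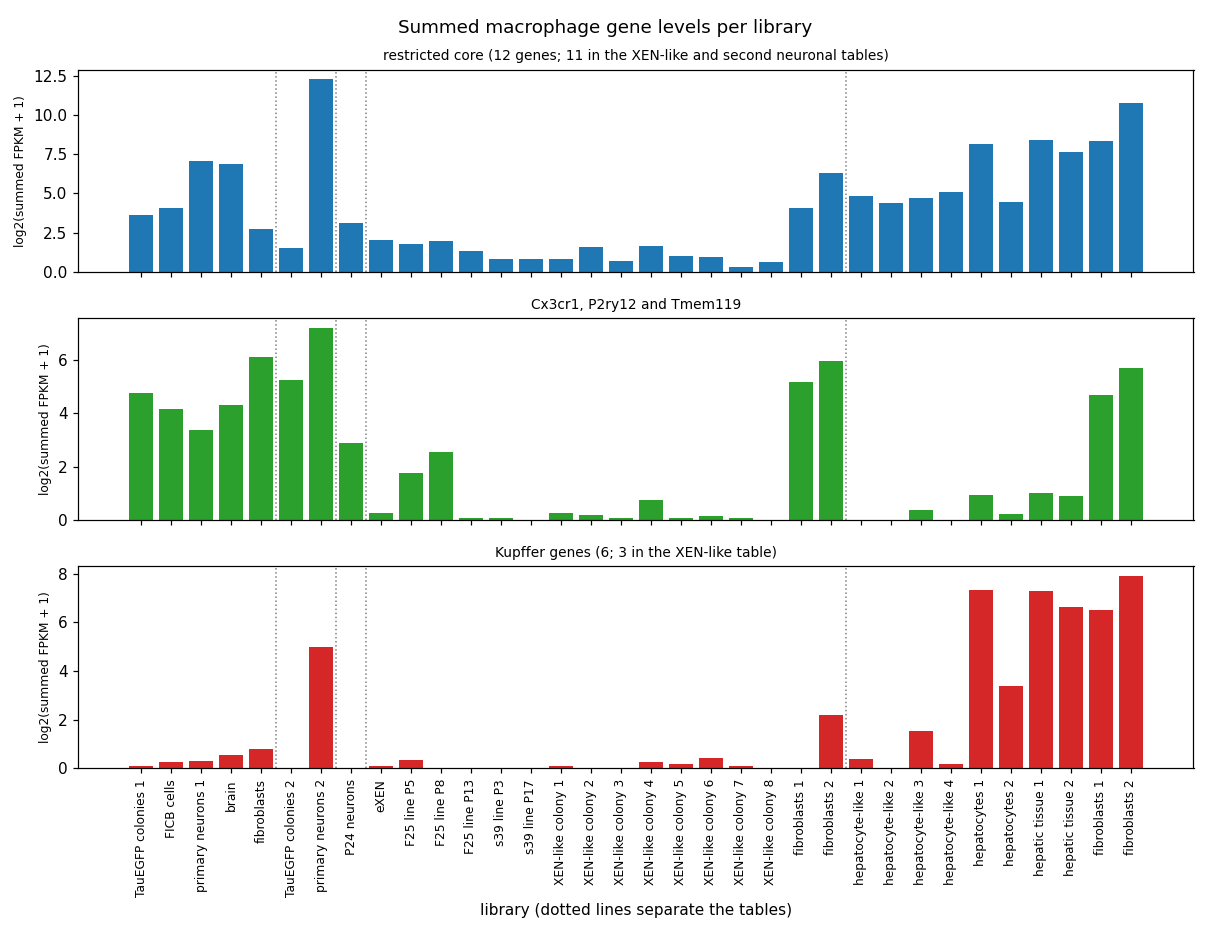
Bars give log2(summed FPKM + 1) per library, starting at 0, for the core (top), Cx3cr1, P2ry12 and Tmem119 (middle) and the Kupffer genes (bottom), with dotted lines between tables that were normalised separately and P before a number for passage. The core sum is 4926 FPKM in primary neurons 2, while the XEN-like colonies lie between 0.25 and 2.15 FPKM.

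Neuronal libraries spanned the widest range. The core sum was 11.2 and 1.91 FPKM in TauEGFP colonies 1 and 2, 15.999 FPKM in FICB cells and 7.85 FPKM in the library labelled passage 24 neurons, against 133 and 4926 FPKM in primary neurons 1 and 2, 115 FPKM in brain and 5.75 FPKM in the fibroblasts of that table. Tables were normalised separately, and the second neuronal table lacks Spi1, so levels set across tables are a description. At 1 FPKM or more, 9 of 37 and 7 of 35 members were found in TauEGFP colonies 1 and 2, 12 in FICB cells and 10 in the library labelled passage 24 neurons, against 23 of 37 and 31 of 35 in primary neurons 1 and 2 and 24 in brain.

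**Figure D2:**
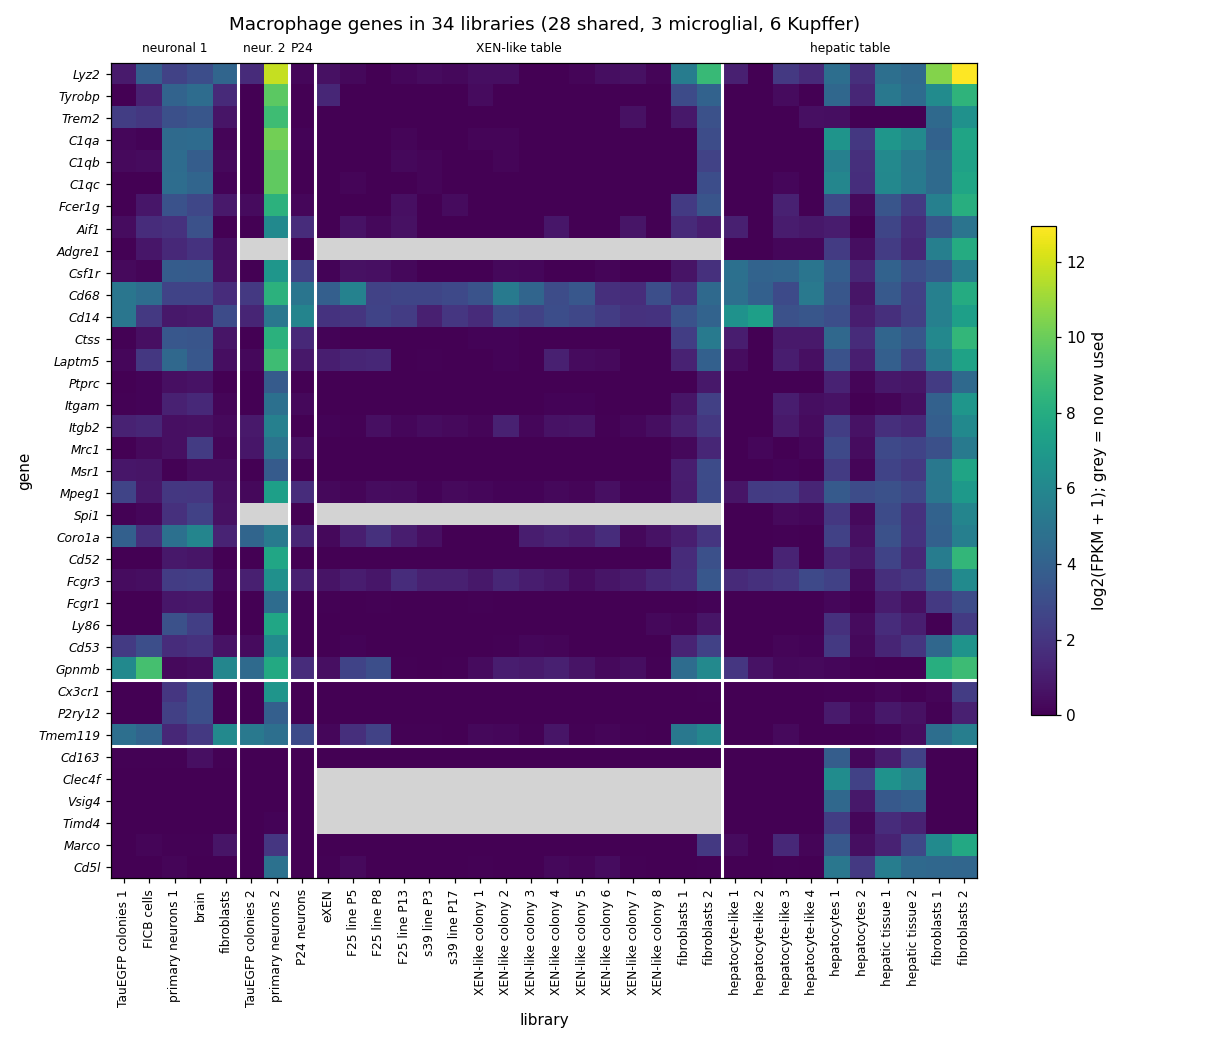
Colour gives log2(FPKM + 1) of the 37 genes (rows, with white lines between the shared, microglial and Kupffer genes) in the 34 libraries (columns, with white lines between tables), and grey marks genes not analysed in a table. Clec4f and Vsig4 are coloured in hepatocytes and tissue, and Csf1r, Cd68 and Cd14 stand out in the hepatocyte-like cells.

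XEN-like colonies had almost none of the macrophage RNA that the fibroblasts carried. Lyz2, which encodes the lysozyme of macrophages and neutrophils (ENSMUSG00000069516, mm10 chr10:117277331-117282321), had a lowest, median and highest level of 0, 0.257 and 0.477 FPKM over the 8 colonies, against 41.9 and 418 FPKM in fibroblasts. Tyrobp, the signalling adaptor of Trem2 and other receptors (ENSMUSG00000030579, mm10 chr7:30413760-30417585), was listed at 0 in all colonies but colony 1, which had 0.317 FPKM, against 6.82 and 15.7 FPKM in fibroblasts. Ctss, a protease of antigen-processing cells, reached at most 0.091 FPKM in a colony, against 4.03 and 38.7 FPKM in fibroblasts. The groups did not overlap for any of these genes. None would have passed the filter on low values without the fibroblasts, so this order was fixed and carries no weight. Fibroblasts 2 was the higher fibroblast library for each.

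Of the 32 members with a row, 16 passed the filter on low values, and 9 of these would not have passed it without the fibroblasts, so that their direction was fixed and no test of them is given. No member was called higher in colonies (17.8% of 14012 genes were) and 14 were called lower (16.8% of all genes), which were all 9 fixed ones and 5 of the other 7. Among those 7, Tmem119 fell by 5.38 on the log2 scale (SE 0.45, limma adjusted p = 3.8e-07). Gpnmb, a transmembrane glycoprotein of phagocytes and pigment cells, fell by 4.72 (SE 0.60, adjusted p = 2.0e-05), and Laptm5 by 2.46 (SE 0.47, adjusted p = 0.00070). Fibroblasts of the first neuronal table, with a core sum of only 5.75 FPKM, had 67.5 FPKM of Tmem119 and 60.9 FPKM of Gpnmb. Among the fixed ones the difference was -6.86 for Lyz2, -3.86 for Ctss, -3.48 for Tyrobp, -2.82 for Fcer1g, the common gamma chain of Fc receptors, and -2.41 for Cd52, a leukocyte surface glycoprotein. The other lower members were Msr1, Cd53, Fcgr3, Cd14, Itgb2 and Aif1. Without fibroblasts 1, 7 members were called lower, and without fibroblasts 2, 3 were, with 9 members tested each time.

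Cd68, a glycoprotein of lysosomes that is abundant in macrophages, and Coro1a, an actin-binding protein of blood cells and neurons, were tested and not called. Cd68 had a lowest, median and highest level of 2.10, 8.31 and 38.1 FPKM over the colonies, against 2.66 and 20.7 FPKM in fibroblasts. The groups overlapped, and the log2 difference was 0.18 (limma adjusted p = 0.893). Coro1a had 0, 0.779 and 2.11 FPKM over the colonies, against 1.11 and 2.95 FPKM in fibroblasts, and its difference was -0.88 (adjusted p = 0.0675).

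The passaged lines were set against the same 2 fibroblast libraries as the colonies. No member was called higher in the lines (19.1% of all genes) and 14 were called lower (14.8%), again the 9 members whose direction the filter fixed and 5 of the other 7. Lyz2, a fixed one, ranged over 0 to 0.322 FPKM in the 5 line libraries. Gpnmb and Tmem119 differed among the lines, since F25 at passages 5 and 8 had 5.05 and 7.66 FPKM of Gpnmb and 2.39 and 4.91 FPKM of Tmem119, while F25 at passage 13 and both s39 libraries lay below 0.1 FPKM for each. In eXEN cells, a single library, Tyrobp had 1.61 FPKM and Cd68 14.1 FPKM. Between lines and colonies, no member was called higher (0.05% of all genes) or lower (0.0357%), and no member had an unadjusted limma p under 0.05, against 1920 genes.

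Fibroblast libraries of the hepatic table held abundant macrophage RNA, in unequal amounts. Lyz2 had 1499 and 7826 FPKM in fibroblasts 1 and 2, Tyrobp 75.6 and 339 FPKM, and Adgre1, which encodes the F4/80 antigen, 47.7 and 248 FPKM. Marco, a scavenger receptor listed here with the Kupffer genes, had 71.2 and 221 FPKM. Clec4f, Vsig4 and Timd4 were listed at 0 in both. The high Marco level stood beside no Clec4f, so Kupffer genes as a class did not move together in fibroblasts. Of 33 members at 1 FPKM or more in either library, 32 were higher in fibroblasts 2 and 29 by a log2 difference of 1 or more. Of 14083 genes, 6300 were higher and 803 by that much, and the median was 2.18 over members and -0.05 over all genes. Among fibroblasts beside the XEN-like cells, library 2 exceeded library 1 in 24 of 25 members, all but Aif1, and in 8868 of 12920 genes. The median there was 1.73 over members and 0.45 over all genes. Summed fibroblast markers were 3967.51 and 5275.34 FPKM in fibroblasts 1 and 2 of the hepatic table, and the 10 neutrophil markers summed to 168 and 80.2 FPKM, mostly S100a8 at 166 and 70.2 FPKM, while Mmp8 had 0.933 and 8.06 FPKM, Ly6g 0 and 1.61 FPKM, and S100a9 was listed at 0 in both. Their part in these results was not tested.

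Hepatocyte-like cells held little of that signal. Lyz2 had 1.23, 0, 3.49 and 1.91 FPKM in hepatocyte-like libraries 1 to 4, Tyrobp 0, 0, 0.297 and 0 FPKM, and Adgre1 0, 0, 0.157 and 0.158 FPKM. Each lay below both fibroblast libraries. Against fibroblasts, 35 of the 37 members passed the filter, and 6 of them (Trem2, Ptprc, Itgam, Tmem119, Fcgr1 and Gpnmb) would not have passed it without the fibroblasts, so that their direction was fixed. None was called higher (11.4% of 15657 genes) and 27 were called lower (15.0%), which were those 6 and 21 of the other 29. By class these were 24 of 28 shared genes, 2 of 6 Kupffer genes (Marco and Cd5l) and Tmem119, the other two microglial genes not having passed the filter.

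Among those called against fibroblasts, Lyz2 had a log2 difference of -10.53 (SE 0.91, limma adjusted p = 3.9e-05), Gpnmb, one of those whose direction was fixed, -7.66, and Tyrobp -7.24 (SE 0.79, adjusted p = 0.00016). Adgre1 had -6.68 (SE 0.67, adjusted p = 9.4e-05), Cd52 also -6.68 (SE 0.79, adjusted p = 0.00026) and Ctss -6.61 (SE 0.84, adjusted p = 0.00038). Fcer1g had -6.56 (SE 0.84, adjusted p = 0.00040) and Marco -6.47 (SE 0.86, adjusted p = 0.00051). The smallest called difference was that of Fcgr1, the high-affinity IgG receptor, at -2.58. Without fibroblasts 1, 25 members were called lower, without fibroblasts 2, 21, and with hepatocyte-like libraries 3 and 4 only, a choice made after seeing the data, 27.

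Against liver, the largest called differences were those of complement C1q and Kupffer genes. Clec4f (ENSMUSG00000014542, mm10 chr6:83644542-83656187) was listed at 0 in all 4 hepatocyte-like libraries, against 77.5 and 4.60 FPKM in hepatocytes and 95.3 and 51.1 FPKM in tissue. Vsig4 was likewise listed at 0 in each, against 19.7 and 0.806 FPKM in hepatocytes and 11.4 and 14.3 FPKM in tissue. C1qa, the first chain of C1q, was listed at 0 in each, against 102 and 3.21 FPKM in hepatocytes and 111 and 67.5 FPKM in tissue. For all 3 genes every liver library lay above every hepatocyte-like library, and hepatocytes 2 was the nearest to 0. Clec4f and Vsig4 reached 1 FPKM in liver libraries only, so for them this order was fixed and carries no weight. The share of all genes with the same order was not counted. Summed over the 6 Kupffer genes, the hepatocyte-like libraries had 0.31, 0, 1.86 and 0.14 FPKM, against 159 and 9.55 FPKM in hepatocytes and 155 and 97.9 FPKM in tissue. Marco made up 1.81 of the 1.86 FPKM in hepatocyte-like library 3.

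**Figure D3:**
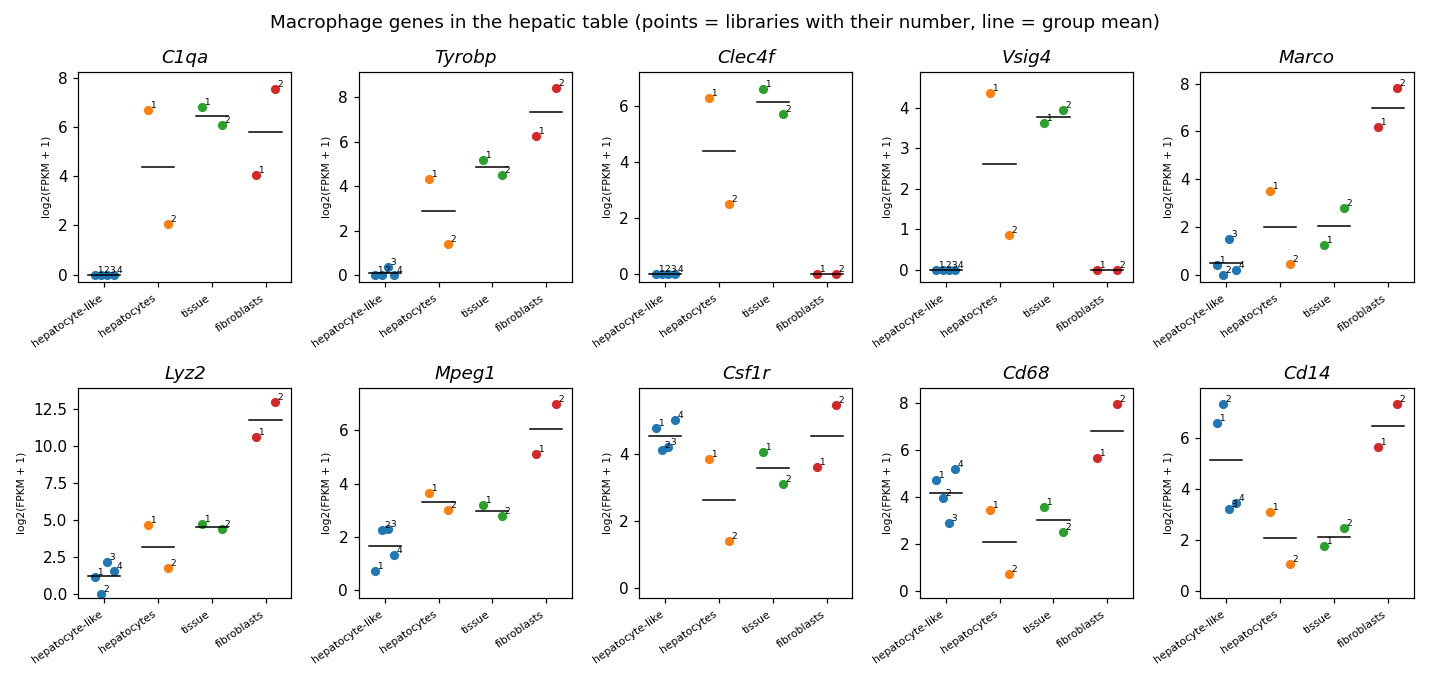
Points give log2(FPKM + 1) of 10 members in each library of the hepatic table, with the library number beside each point and a line at the group mean. Clec4f is at 0 in the hepatocyte-like cells and in both fibroblast libraries, while Csf1r lies between 16.5 and 31.2 FPKM in the hepatocyte-like cells.

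Against hepatic tissue, no member was called higher in hepatocyte-like cells (42.3% of all genes) and 17 were called lower (7.94%), which were 13 of 28 shared and 4 of 6 Kupffer genes. Of the 35 tested members, 3 (Cd163, Vsig4 and Timd4) would not have passed the filter without the tissue, so no test of them is given. Of the other 32, 15 were called lower. Clec4f, among these 15, reached 1 FPKM in liver libraries only in this model, so its direction was fixed too and no test of it is given. The median difference over all genes was 0.96. Scaling the libraries by median ratios moved the median of all genes to 0.06, and the split of all calls from 6624 higher and 1243 lower to 2350 higher and 2573 lower. The fitted differences of genes listed at 0 depend on the pseudocount and are no bounds. C1qa had a log2 difference of -6.45 (SE 1.20, limma adjusted p = 0.0018), Clec4f -6.15 and C1qb -5.68 (SE 1.03, adjusted p = 0.0016). C1qc had -5.59 (SE 1.10, adjusted p = 0.0025), Cd5l, a protein secreted by macrophages, -4.94 (SE 0.68, adjusted p = 0.00038) and Tyrobp -4.75 (SE 0.79, adjusted p = 0.0010). Vsig4, whose direction the filter fixed, had -3.78, and Lyz2 had -3.32 (SE 0.91, adjusted p = 0.013). Without tissue 1, 7 members were called lower, without tissue 2, 11, and with hepatocyte-like libraries 3 and 4 only, 10.

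Against hepatocytes the count depended on which libraries were fitted. With both libraries, 10 members were called lower (7.54% of all genes), 6 shared and 4 Kupffer genes, and 1 was called higher (41.3%). Of the 35 tested members, 1 would not have passed the filter without the hepatocytes, and it was not called. Clec4f, Vsig4 and Timd4, all called lower, reached 1 FPKM in hepatocyte and tissue libraries only. Their direction was therefore fixed, and no test of them is given. The median difference was 0.94 over all genes, or 0.07 after median-ratio scaling, which gave 2393 genes higher and 2270 lower in place of 6468 and 1181. Clec4f had -4.39, C1qa -4.38 (SE 1.20, limma adjusted p = 0.013) and Cd5l -3.62 (SE 0.68, adjusted p = 0.0020). C1qc had -3.75 (SE 1.10, adjusted p = 0.018), C1qb -3.71 (SE 1.03, adjusted p = 0.014) and Tyrobp -2.78 (SE 0.79, adjusted p = 0.015). Vsig4 had -2.61, and Ctss -2.30 (SE 0.84, adjusted p = 0.044). Hepatocytes 1 had a core sum of 283 FPKM, against 20.6 FPKM in hepatocytes 2, and a fit without either leaves 1 hepatocyte library. With hepatocyte-like libraries 3 and 4 only, 2 of 35 tested members were called lower, beside 1175 of 15259 genes, so the share of members was no larger.

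No member was called between hepatocytes and hepatic tissue (0.0% of all genes higher, 0.00639% lower), and 1 member, Aif1, which encodes the actin-binding protein IBA1, had an unadjusted limma p under 0.05, against 334 genes. The 2 hepatocyte libraries were themselves unequal. Of 29 members at 1 FPKM or more in either, 29 were higher in hepatocytes 1 and 27 by a log2 difference of 1 or more. Of 11404 genes, 3573 were higher and 1015 by that much, and the median was 2.44 over members and -0.31 over all genes. C1qb had 49.5 and 2.39 FPKM in hepatocytes 1 and 2, Cd163, the scavenger receptor for haemoglobin with haptoglobin, 13.2 and 0.154 FPKM, and Mpeg1, a pore-forming protein of phagocytes, 11.5 and 7.06 FPKM. Markers of other liver cells moved the same way, with summed endothelial markers of 64.5 and 9.08 FPKM, neutrophil markers of 35.7 and 1.85 FPKM and T and NK cell markers of 15.6 and 8.08 FPKM in hepatocytes 1 and 2. Their part in the result was not tested. Between the tissue libraries, 23 of 29 members were higher in tissue 1, as were 7062 of 11197 genes. The median was 0.71 over members and 0.25 over all genes, while Cd163 and Marco were higher in tissue 2 by more than 1 on the log2 scale.

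**Figure D4:**
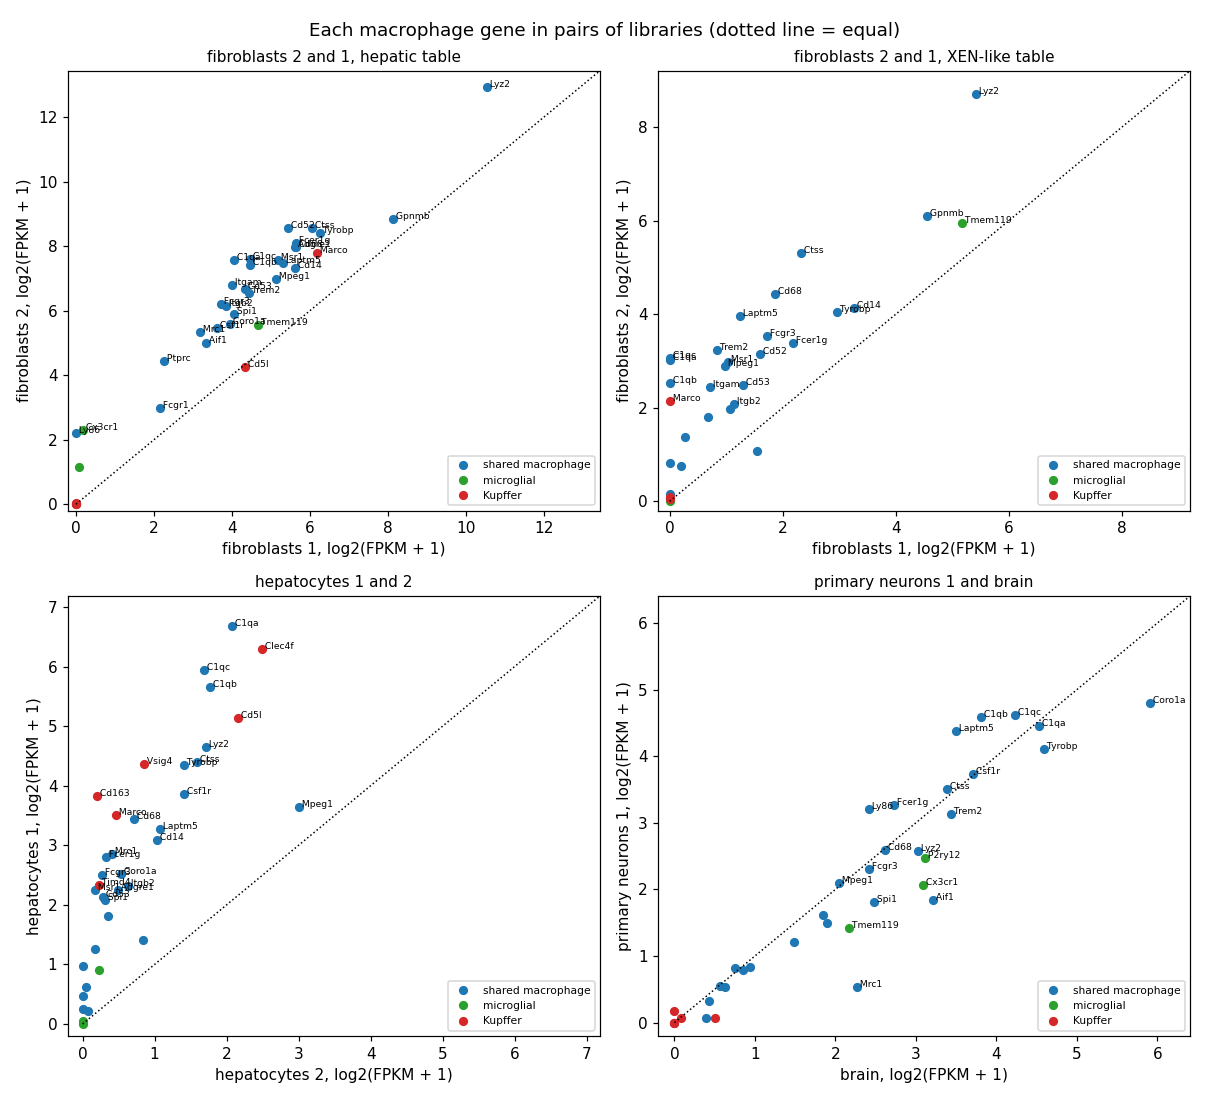
Each point is a member, placed by its log2(FPKM + 1) in the 2 libraries named on the axes and coloured by class, with a dotted line where both are equal. Nearly all points lie above the line for fibroblasts 2 over fibroblasts 1 and hepatocytes 1 over hepatocytes 2, and around it for primary neurons 1 and brain.

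Ratios within a library differed between fibroblasts and tissues, and between the 2 primary neuron libraries. Lyz2 was 96.7 and 41.6 times the level of C1qa in the hepatic-table fibroblasts 1 and 2 and 58.2 times in fibroblasts 2 of the XEN-like table. It was 0.24 times the level of C1qa in primary neurons 1, 3.14 times in primary neurons 2, 0.32 times in brain, 0.24 times in hepatocytes 1, and 0.23 and 0.29 times in hepatic tissue. Clec4f was 0.761 times the level of C1qa in hepatocytes 1 and 0.861 and 0.757 times in tissue. This ratio was thus alike in the hepatocyte library with much macrophage RNA and in whole liver. No ratio was taken for hepatocytes 2, where C1qa was low, at 3.21 FPKM, beside 4.60 FPKM of Clec4f and 2.29 FPKM of Lyz2. FPKM values are per length, so the levels of different genes can be set side by side.

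No member was called between TauEGFP colonies and primary neurons, and neither was any other gene (0.0% higher and 0.0% lower of 13625), in a model with 1 library of each group per table. Of the 24 tested members, 19 would not have passed the filter without the primary neurons, which leaves 5 others. Of the 19, 13 reached 1 FPKM in neither colony, so their direction was fixed by the filter. At an unadjusted limma p under 0.05 there were 750 genes, and 15 of the 24 members, a number that the filter bears on. Tyrobp was listed at 0 in TauEGFP colonies 1 and 2, against 16.2 and 810 FPKM in primary neurons 1 and 2. C1qa had 0.183 and 0 FPKM in TauEGFP colonies, against 20.9 and 1150 FPKM in primary neurons. Cx3cr1 was listed at 0 in both colonies, against 3.18 and 106 FPKM, and P2ry12 likewise, against 4.54 and 14.2 FPKM in primary neurons. All 4 genes were lower in the colony in both tables, and all 4 belong to those fixed by the filter. Tmem119 ran the other way, with 25.7 and 37.1 FPKM in TauEGFP colonies 1 and 2, against 1.67 and 25.6 FPKM in primary neurons, and Cd14 and Gpnmb were higher in the colony in the first table and lower in the second.

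Primary neurons 2 had the highest core sum of all libraries and low neuron markers. Lyz2 had 3616 FPKM, Trem2, a lipid-sensing receptor of microglia, 483 FPKM and Cd5l 27.7 FPKM. Summed neuron markers were 791.71 and 804.63 FPKM in TauEGFP colonies 1 and 2, against 794.88 and 68.64 FPKM in primary neurons 1 and 2. Snap25, which encodes a protein of synaptic vesicle release, had 35.2 and 0.0549 FPKM in primary neurons 1 and 2, and Gfap, the astrocyte filament, 2.29 and 2688 FPKM. The library labelled primary neurons 2 was low in neuron markers and high in astrocyte and macrophage genes, against its label, and the part of this in the comparison above was not tested. Its microglial genes did not share 1 factor over primary neurons 1, with Tmem119 at 1.67 and 25.6 FPKM in primary neurons 1 and 2, and Fcrls, a further microglial gene, at 9.96 and 330 FPKM.

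Primary neurons 1 and brain had similar levels of many macrophage genes, while summed erythroid markers were 16278.1 FPKM in primary neurons 1, the highest of all libraries, against 1615.48 FPKM in brain, and their part in the result was not tested. C1qa had 20.9 FPKM in primary neurons 1 and 22.2 FPKM in brain, and Csf1r 12.4 and 12.04 FPKM. Of 24 members at 1 FPKM or more in either, none was higher by a log2 difference of 1 or more (11.7% of 15131 genes) and 4 were lower (13.8%), with a median of -0.25 over members and 0.05 over all genes. The 4 were the mannose receptor Mrc1 (0.45 FPKM in primary neurons 1 and 3.80 FPKM in brain), Aif1 (2.58 and 8.25 FPKM), Coro1a (26.7 and 59.0 FPKM) and Cx3cr1 (3.18 and 7.52 FPKM). These are single libraries with no replicate check.

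Induced neuronal cells were also set against the 1 fibroblast library of their table, with no replicate check. In TauEGFP colonies 1, 6 of 11 members at 1 FPKM or more in either library were higher by a log2 difference of 1 or more (25.2% of 15010 genes) and 3 were lower (8.56%). Cd68 had 32.8 FPKM in TauEGFP colonies 1 against 2.12 FPKM in fibroblasts, Cd14, the lipopolysaccharide co-receptor, 32.7 against 6.88 FPKM, and Coro1a 14.5 against 1.43 FPKM. The lower ones were Lyz2, Tyrobp and Tmem119. In FICB cells, 7 of 12 members were higher (15.6% of 13778 genes) and 1, Tmem119, was lower (11.4%). Gpnmb had 552 FPKM in FICB cells against 60.9 FPKM in fibroblasts, Cd68 24.04 against 2.12 FPKM, and Cd53, a tetraspanin of leukocytes, 7.51 against 0.55 FPKM.

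Csf1r, a core gene, and the non-core genes Cd68 and Cd14 stood apart from the rest of the members in hepatocyte-like cells, in which 1, 2, 4 and 2 of the 12 core genes reached 1 FPKM. Csf1r had 26.5, 16.5, 17.4 and 31.2 FPKM in hepatocyte-like libraries 1 to 4 (22.9 ± 7.12 FPKM, SD, n = 4), against 13.5 and 1.65 FPKM in hepatocytes, 15.6 and 7.53 FPKM in tissue and 11.2 and 43.1 FPKM in fibroblasts. In FPKM as deposited, every hepatocyte-like library lay above every hepatocyte and tissue library, and the fibroblasts lay on either side. On that scale the typical gene was also higher in hepatocyte-like cells, with medians of 0.96 against tissue and 0.94 against hepatocytes. Whether the order of libraries for Csf1r remains after median-ratio scaling was not tested. Csf1r was the 1 member called higher against hepatocytes, with a log2 difference of 1.90 (SE 0.72, limma adjusted p = 0.0496). That call held with a pseudocount of 0.1 and without hepatocytes 1, and was lost under every other alternative run, among them median-ratio scaling (0.72, adjusted p = 0.519) and leaving out hepatocytes 2 (0.68, adjusted p = 0.463), with an adjusted p of 0.0119 to 0.519 over all alternatives. Differences of 0.96 against tissue (adjusted p = 0.283) and of -0.00 against fibroblasts were not called.

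Csf1r shares 15.1% of its exon bases with Hmgxb3 on the opposite strand, and the labels do not say whether counting used strand. Hmgxb3 had 9.504, 11.5, 9.98 and 11.4 FPKM in the hepatocyte-like libraries. In the same table Hmgxb3 had 2.72 and 3.45 FPKM in hepatocytes, 3.03 and 2.37 FPKM in tissue and 9.14 and 9.24 FPKM in fibroblasts. In the XEN-like table, normalised separately, it had 9.63 to 18.3 FPKM in the colonies, where Csf1r was listed at 0 to 0.194 FPKM. The part of Hmgxb3 in the Csf1r level was not tested. Itgam, which encodes the CD11b integrin chain, shares 68.7% of its exon bases with Gm49368 on the same strand, so its level is uncertain.

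**Figure D5:**
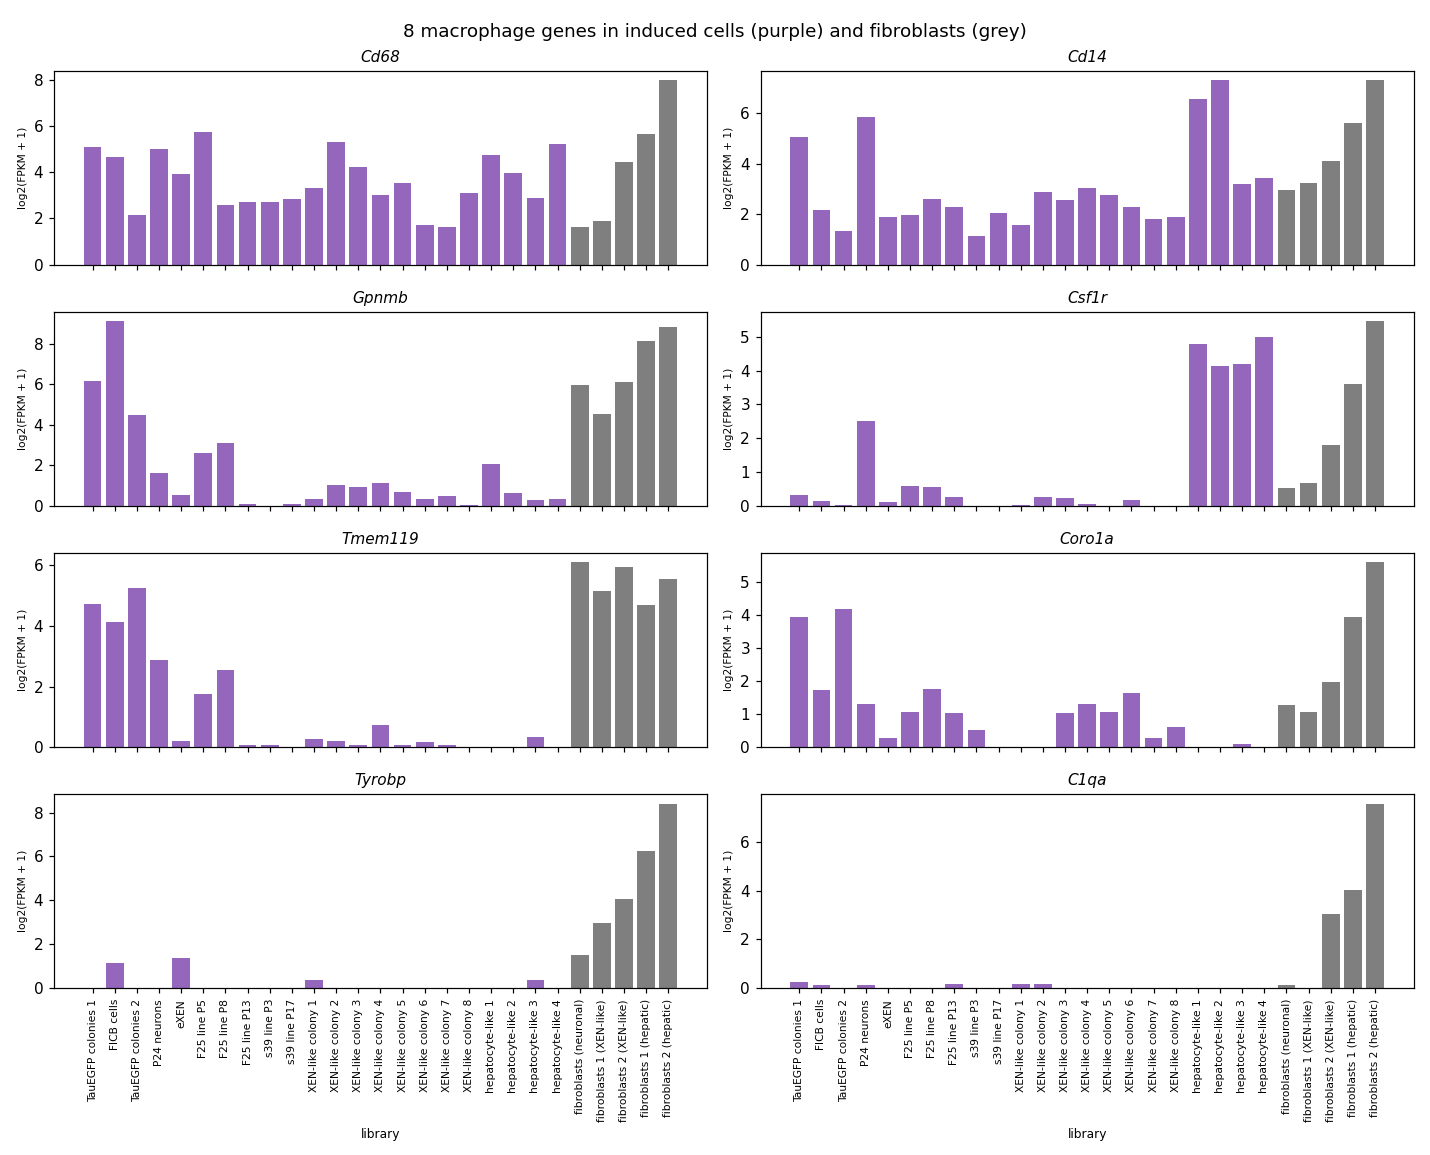
Bars starting at 0 give log2(FPKM + 1) of 8 members in each induced or XEN library (purple) and each fibroblast library (grey), from tables that were normalised separately, with P before a number for passage. Csf1r, Cd68 and Cd14 lie above 1 FPKM in the 4 hepatocyte-like libraries, where C1qa is listed at 0.

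Cd68 had 25.4, 14.5, 6.49 and 36.0 FPKM in the hepatocyte-like libraries, against 9.87 and 0.647 FPKM in hepatocytes, 11.1 and 4.66 FPKM in tissue and 49.3 and 251 FPKM in fibroblasts. Cd14 had 94.4, 159, 8.15 and 9.91 FPKM, against 7.50 and 1.04 FPKM in hepatocytes, 2.37 and 4.45 FPKM in tissue and 48.0 and 158 FPKM in fibroblasts. Libraries 1 and 2 were the high ones for Cd14, and they were also those with few low values. Neither gene was called, with log2 differences against tissue of 1.15 for Cd68 (limma adjusted p = 0.316) and 3.04 for Cd14 (adjusted p = 0.0579), and against hepatocytes of 2.12 (adjusted p = 0.0825) and 3.08 (adjusted p = 0.0566). Against fibroblasts, Cd68 had -2.62 (adjusted p = 0.0645) and Cd14 -1.33 (adjusted p = 0.456). In the library labelled passage 24 neurons, whose hepatocyte and extraembryonic endoderm markers are given above, Cd14 had 56.5 FPKM, Cd68 31.2 FPKM and Csf1r 4.65 FPKM, while Tyrobp was listed at 0.

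Other members with signal in hepatocyte-like cells were low. Fcgr3, an IgG receptor, had 1.90, 2.43, 3.14 and 6.26 FPKM, against 4.68 and 0.202 FPKM in hepatocytes and 2.36 and 3.32 FPKM in tissue. Mpeg1 had 0.671, 3.82, 3.90 and 1.501 FPKM, below the 11.5 and 7.06 FPKM of hepatocytes and the 8.16 and 5.84 FPKM of tissue. Mpeg1 was called lower against hepatocytes, at a log2 difference of -1.67.

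Tmem119 went against its microglial class outside brain. It had 25.7 and 37.1 FPKM in TauEGFP colonies 1 and 2, 16.7 FPKM in FICB cells and 6.37 FPKM in the library labelled passage 24 neurons, against 67.5 FPKM in the fibroblasts of the first neuronal table. Fibroblasts of the XEN-like table had 34.96 and 60.6 FPKM and those of the hepatic libraries 24.5 and 45.9 FPKM, where Cx3cr1 reached at most 3.96 FPKM and P2ry12 at most 1.24 FPKM. Brain had 3.50 FPKM of Tmem119, below every fibroblast library, beside 7.52 FPKM of Cx3cr1 and 7.62 FPKM of P2ry12. Summed fibroblast markers were 1468.9 and 3958.8 FPKM in TauEGFP colonies 1 and 2 and 2151.9 FPKM in FICB cells, against 4543.4 FPKM in the fibroblasts beside them and 247.2 FPKM in brain, and their part in the Tmem119 and Gpnmb levels was not tested.

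Genes that work with the members moved in part with them. Against fibroblasts, 8 of 12 genes of ITAM signalling, the kinase pathway below Tyrobp and Fcer1g, were called lower in hepatocyte-like cells and none higher, with the phosphatase Inpp5d at -3.99 (SE 0.39, limma adjusted p = 8.0e-05) and the kinase Syk at -3.62 (SE 0.59, adjusted p = 0.0016). All 5 tested genes of the phagocyte oxidase fell, with Rac2 at -4.92 (SE 0.54, adjusted p = 0.00018) and Cybb, its catalytic subunit, at -4.78 (SE 0.66, adjusted p = 0.00061). Of 6 further microglial genes 3 fell, among them Fcrls at -5.45 (SE 0.80, adjusted p = 0.00087), and of 9 further Kupffer genes 3 fell and 1 rose. The ligands fell too, with the chemokine Ccl2 at -5.76 (SE 0.62, adjusted p = 0.00015) and the Csf1r ligand Csf1 at -4.27 (SE 0.59, adjusted p = 0.00065), among 4 of 7 tested. These shares stand beside the 15.0% of all genes called lower. Which genes of these lists passed the filter only through the control libraries was not checked, here or in the comparisons below. The direction of some may therefore be fixed.

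Set against hepatic tissue, 7 of 9 further Kupffer genes were called lower in hepatocyte-like cells and 1 higher, beside 7.94% and 42.3% of all genes. The liver X receptor Nr1h3, which hepatocytes also express, had -4.61 (SE 0.57, limma adjusted p = 0.00021), and Id3, a transcription regulator of many cell types, had 3.31 (SE 0.39, adjusted p = 0.00016). Of the 10 lysosomal genes of all cells, 7 were called higher and none lower, but with median-ratio scaling none was called higher and 2 were called lower. Lgmn, a lysosomal protease, had 2.76 (SE 0.48, adjusted p = 0.0013), or 1.39 (adjusted p = 0.0827) with that scaling. Cd68 is a lysosomal protein as well, and these values stand beside its level without a test of their part in it.

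In colonies of XEN-like cells, set against fibroblasts, the same lists had fewer genes past the filter. Of 4 tested MHC class II genes 3 fell, with H2-Ab1 at -4.06 (SE 0.58, limma adjusted p = 5.5e-05). Ligands of macrophage receptors fell in 4 of 7 genes and rose in 1, with Ccl2 at -7.85 (SE 0.51, adjusted p = 2.7e-08), Csf1 at -4.30 (SE 0.63, adjusted p = 6.8e-05) and Apoe, the apolipoprotein bound by Trem2, at 3.42 (SE 0.93, adjusted p = 0.0081). No ITAM gene fell among 7 tested, and the B cell adaptor Blnk rose by 3.62 (SE 0.89, adjusted p = 0.0042). The share of all genes called was 17.8% higher and 16.8% lower. No gene of these lists was called between hepatocytes and tissue or between TauEGFP colonies and primary neurons.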

How the data were processed

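Poly-A RNA libraries were sequenced, and the authors deposited FPKM values in 5 tables. Per the submitters' processing notes, reads were aligned with TopHat2 to mm10, and the aligner's version, the counter, the annotation and the strand setting are not given in the sources used here. The unit is named in 1 header and was otherwise judged from the values. Repeated identifiers (118, 99 and 118 rows in the hepatic, first neuronal and late-passage neuron tables) and 1 row with an empty cell in the XEN-like table were dropped, leaving 48278, 43397, 34932, 20458 and 48278 genes in the hepatic, first neuronal, second neuronal, XEN-like and late-passage neuron tables. Members were matched by Ensembl identifier, with exons and positions from GENCODE vM21.

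Libraries were grouped by their labels. Values were taken as log2(FPKM + 1), genes at 1 FPKM or more in at least 2 libraries of a model were kept, and limma 3.58.1 (R 4.3.3, empirical Bayes with trend) was fitted to all of them, two-sided. The XEN model held 16 libraries with a flow cell term, and the hepatic model 10 libraries with none. The neuronal model had the table as a block, which leaves 1 residual degree of freedom. Benjamini-Hochberg adjustment ran over all genes tested. The code was tested on simulated data. Python 3.11.15, pandas 2.3.3, numpy 2.4.6 and matplotlib 3.10.9 were used otherwise.

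The members and all other gene lists were chosen with earlier results of these data known. Up to 8 called members per comparison with the largest differences, and up to 4 called genes per other list, are given with statistics, while any member may be given with its levels. Members whose direction the filter fixed are given by their difference only, and genes of the other lists were not checked for this. Alternatives were a pseudocount of 0.1, no filter, median-ratio scaling, no trend, no flow cell term, single flow cells, a replicate block and leaving out each library. Restricting the hepatocyte-like libraries to 3 and 4, and median-ratio scaling of the other gene lists, were added after seeing the data.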

Additional observations from a re-analysis of the deposited data

Results flagged for a closer look

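In groups of 4 to 10 libraries, 21 combinations of a member and a group were examined for 1 library far from the rest, and 4 stood out. The nominal rate of about 1 in 20 does not hold for values at a floor of 0. A gene listed at 0 in all libraries but 1 always stands out, so the count is not set against chance. Laptm5 had 1.22 FPKM in XEN-like colony 4, against 0 to 0.316 FPKM in the other colonies. Fcer1g had 1.31 FPKM and Cd52 had 1.42 FPKM in hepatocyte-like library 3, and both were listed at 0 in the other hepatocyte-like libraries. Ctss was listed at 0 in hepatocyte-like library 2, against 0.821 to 1.04 FPKM in the others. The first 3 values named lie close to the level of 1 FPKM used as the filter. Cd52 shares 14.5% of its exon bases with Crybg2 on the opposite strand. Crybg2 had 32.2, 22.6, 9.71 and 9.70 FPKM in hepatocyte-like libraries 1 to 4, and its part in the Cd52 level was not tested.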

How the results depend on the processing

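Of 1008 results for a called member that was still tested under an alternative, 905 kept the call, 103 kept only the direction, and 0 reversed. Called members that no longer passed the filter under an alternative are not in this count. Members whose direction the filter fixed are in it, so it is no measure of how firm the calls are. For colonies against fibroblasts, 22 members were called lower with no filter, 3 with the HVN flow cells only and 3 with HJMKLALXX only, each of which leaves 1 fibroblast library, and 3 to 15 with 1 library left out. For lines against fibroblasts, 3 were called lower with the HVN flow cells only and 3 to 14 with 1 library left out. Without fibroblasts 1 there were 7 and without fibroblasts 2 there were 3 in both comparisons. For hepatocyte-like cells against tissue, 1 member was called higher with a pseudocount of 0.1, 7 to 16 were called lower with 1 library left out and 10 with hepatocyte-like libraries 3 and 4 only, and 0 to 1 higher with any library left out. Against hepatocytes, 2 members were called higher and 18 lower with a pseudocount of 0.1, while 0 were called higher with no filter, with median-ratio scaling, without the trend, or with hepatocyte-like libraries 3 and 4 only, which gave 2 lower. Leaving out a library there gave 2 to 16 lower and 0 to 2 higher. Over all 15259 genes fitted with hepatocyte-like libraries 3 and 4 only, 2145 were called lower against fibroblasts, 1237 against tissue and 1175 against hepatocytes. Fewer libraries were fitted in the restricted settings, and the cause of the other changes was not tested.

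Colonies and fibroblasts share replicate numbers 1 and 2, whose deviations correlated at 0.26 and -0.20. With 2 fibroblast libraries the deviations mirror each other, and colonies 1 and 2 shared flow cell HVNJMCCXX with fibroblasts 1. The correlations therefore cannot decide whether the numbers mark pairs. With the replicate numbers as a block, 12 members were called lower and 0 higher. Between TauEGFP colonies and primary neurons there were 0 calls with and with no replicate block. Median-ratio scaling moved the median of all genes from 0.16 to -0.01 for colonies (2497 higher and 2357 lower against 2024 and 2779) and from 0.19 to -0.05 for lines (2674 and 2067 against 1930 and 2646). Depth limits members below about 0.18 FPKM, where 1 fragment on a gene of 1 kb decides the value, and no interval was computed because totals are not known.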
